A study of Mus musculus with 4 samples.

Results

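Genes of the interferon response and of antigen presentation were examined in the brains of wild-type and Bcas1 knockout mice. The members are 36 genes chosen by name for their role, and a member was measured where a probe set of the array is annotated to that gene alone. By this rule 34 of the 36 members were measured, by 67 of the 45037 probe sets tested and as 34 of 18193 genes, 22 of them in the interferon response and 12 in antigen presentation. The 2 members without a probe set of their own are Isg15, whose probe set is shared with Gm9706, and Ifi44, which no probe set names in the annotation used.

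The study measured RNA of 4 male C57BL/6 mice aged 8 to 9 weeks, one mouse per array, after breeding of Bcas1 +/- animals. The wild-type group held 2 Bcas1 +/+ mice and the knockout group 2 Bcas1 -/- mice. The labels name the tissue as brain and as cerebrum, and the sources used here do not give the part of Bcas1 that was disrupted. RNA of whole tissue was hybridised, so fewer cells of a type and less RNA per cell cannot be told apart. Values are log2 levels, so a difference of 1 is a doubling. The p-values rest on the spread between the mice of these small groups, combined with a spread estimated over all probe sets.

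Interferons are secreted proteins that cells release on sensing viral or misplaced nucleic acids. Type I interferons bind a receptor whose kinases activate STAT2, which acts with IRF9 at a DNA element called the ISRE in front of interferon-stimulated genes. Interferon gamma acts through GAS elements, and both classes of interferon raise the MHC class I pathway, which shows peptides of the cell's own proteins to CD8 T cells. MHC class II, which shows peptides of engulfed proteins to CD4 T cells, depends on the coactivator CIITA. In healthy brain many of these genes are held at low levels, and microglia, border macrophages and endothelial cells are among the cells that can induce them.

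Windows of 250 bases before the transcription start, from RefSeq on GRCm38.p6, show where letters that match these elements sit. For 26 of the 36 members the table held a window, counted as 250 bases before and 50 after the start, and 10 had none. The ISRE core was searched as 2 copies of GAAA spaced by 2 bases, the GAS core as TTCNNNGAA and the Y box of MHC promoters as CTGATTGG, on both strands. Some members have several windows, and the 26 members have 32. An ISRE core lay in the windows of 12 of the 26 members, in 13 of the 32 windows, and in 3.44% of all 32851 windows. A GAS core lay in those of 6 members, in 6 of the 32 windows, against 8.3% of all windows. A Y box lay in those of 5 members, in 6 of the 32 windows, against 4.1%. Matches of different motifs overlapped 2 times in the members' windows. The Y box was found in H2-K1, H2-D1, H2-Aa, H2-Eb1 and Tap1, all genes of antigen presentation. A match is a run of letters and was not tested as a binding site, and the array data hold no measurement of binding. Below, 3 windows with the ISRE core and 2 with the Y box are printed 5′ to 3′ on the strand of the gene, up to the base before the start. They are shown as examples of windows that hold the searched letters, with the matches in capitals.
Isg15, chr4:156200819-156201068, minus strand, 3 overlapping ISRE cores: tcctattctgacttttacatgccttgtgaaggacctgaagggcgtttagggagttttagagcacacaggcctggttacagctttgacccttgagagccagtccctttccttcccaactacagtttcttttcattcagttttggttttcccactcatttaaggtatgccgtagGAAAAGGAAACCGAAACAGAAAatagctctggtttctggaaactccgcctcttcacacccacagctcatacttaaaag
Bst2, chr8:71537473-71537722, minus strand, 2 overlapping ISRE cores: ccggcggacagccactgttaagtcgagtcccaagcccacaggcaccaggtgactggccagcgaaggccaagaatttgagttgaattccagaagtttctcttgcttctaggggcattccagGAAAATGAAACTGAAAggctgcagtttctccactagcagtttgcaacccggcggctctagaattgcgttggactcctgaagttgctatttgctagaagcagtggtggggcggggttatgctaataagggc
Rsad2, chr12:26456453-26456702, minus strand, 1 ISRE core read on the opposite strand: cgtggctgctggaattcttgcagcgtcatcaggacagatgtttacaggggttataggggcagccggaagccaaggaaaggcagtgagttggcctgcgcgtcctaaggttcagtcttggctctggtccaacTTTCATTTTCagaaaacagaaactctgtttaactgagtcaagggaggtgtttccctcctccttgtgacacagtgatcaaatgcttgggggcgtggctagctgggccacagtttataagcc
Tap1, chr17:34187306-34187555, plus strand, 1 Y box read on the opposite strand: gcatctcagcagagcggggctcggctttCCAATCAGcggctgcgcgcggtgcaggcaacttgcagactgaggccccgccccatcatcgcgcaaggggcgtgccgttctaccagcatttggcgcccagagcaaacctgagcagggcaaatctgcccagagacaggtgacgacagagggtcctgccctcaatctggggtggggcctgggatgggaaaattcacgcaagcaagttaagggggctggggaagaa
H2-Eb1, chr17:34305617-34305866, plus strand, 1 Y box: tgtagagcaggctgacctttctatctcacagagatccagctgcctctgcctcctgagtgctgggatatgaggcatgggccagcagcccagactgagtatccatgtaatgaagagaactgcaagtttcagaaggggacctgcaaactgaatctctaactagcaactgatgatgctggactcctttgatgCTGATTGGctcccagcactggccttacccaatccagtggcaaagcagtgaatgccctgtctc

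The targeted gene and the arrays were looked at first. The brightest Bcas1 probe set stood at 12.17 and 12.21 in the wild-type mice and at 11.05 and 10.75 in the knockouts, and the 2 dimmer probe sets were higher in the knockout. Array medians ran from 6.49 to 6.51. The second knockout array stands apart in transcripts of nasal tissue, with Obp1a, an odorant-binding protein, at 8.92, while the first knockout array had 3.46 and the wild-type mice 3.41 and 4.15. For the 8 members given in full, the value without that array is therefore printed as well.

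No member passed the test between genotypes in either direction. In limma, adjusted over all 45037 probe sets by Benjamini-Hochberg, 0 of 34 members were called higher and 0 lower at an adjusted p under 0.05, where 0% and 0.0055% of all genes were called. The adjusted p was 1 for every one of the 67 member probe sets. At an unadjusted p under 0.05 there was 1 member higher, Ifit2, and 2 lower, Oasl2 and Tap1, beside 1.68% and 1.07% of all genes. The median difference of the 22 interferon-response members was 0.023 and that of the 12 antigen presentation members was 0, beside 0.0050 over all genes. With 2 against 2 arrays an exact permutation test cannot give a two-sided p below 0.33. Bcas1, the targeted gene, was not called either. Its brightest probe set was lower by 1.29 (-1.29) without overlap, yet limma left its adjusted p at 0.742. Since the targeted gene went uncalled, 0 calls among the members cannot show that they were unchanged.

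Both knockout arrays lay above both wild-type arrays in 5 of 34 members and below them in 4 of 34. Over all genes the shares were 15.5% and 12.8%, and the members' 14.7% and 11.8% were near that background. The members that were higher in this sense were Ifit2, Rsad2, Irf1, Ifi27 and Cd74, and the lower ones were Oasl2, Tap1, H2-D1 and H2-Ab1. With 1 array left out, fewer arrays can overlap, and the counts ran from 7 to 14 higher and from 6 to 13 lower. Without the second knockout array 8 were higher and 13 lower, beside 28.7% and 39.8% of all genes, and when the first was left out 14 were higher and 10 lower, beside 44.4% and 25.4%. Without the first wild-type array 7 were higher and 13 lower, beside 26.9% and 26.6%, and without the second 13 were higher and 6 lower, beside 31.6% and 24.3%.

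**Figure D1:**
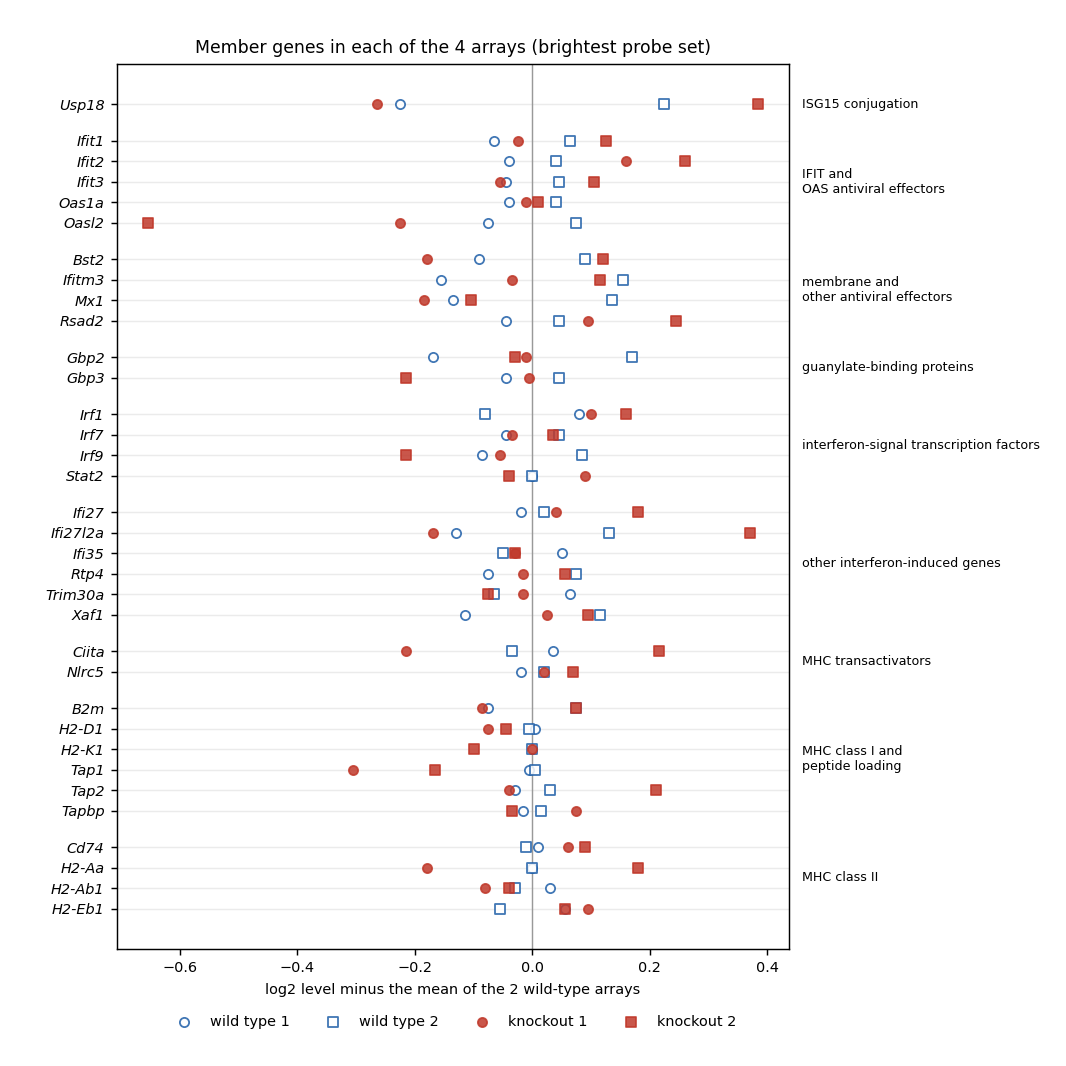
Log2 level of each of the 34 measured members in each array, minus the mean of both wild-type arrays, on the x axis, with genes on the y axis grouped by role. Open symbols are wild type and filled symbols knockout, circles are the mice numbered 1 and squares those numbered 2. Usp18 and Ifi27l2a separate circles from squares within both genotypes, and Oasl2 lies lowest in the second knockout array.

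The intervals show how large a difference these arrays would have left room for. The 95% interval of limma lay within 1.5-fold in both directions, that is between -0.58 and 0.58 on the log2 scale, for 31 of the 34 members and for 95.8% of all genes. The 3 members with wider reach were Usp18, Ifi27l2a and Oasl2. These intervals are not adjusted for the number of genes. The median SE of the difference was 0.088 for the members and 0.084 for all genes.

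**Figure D2:**
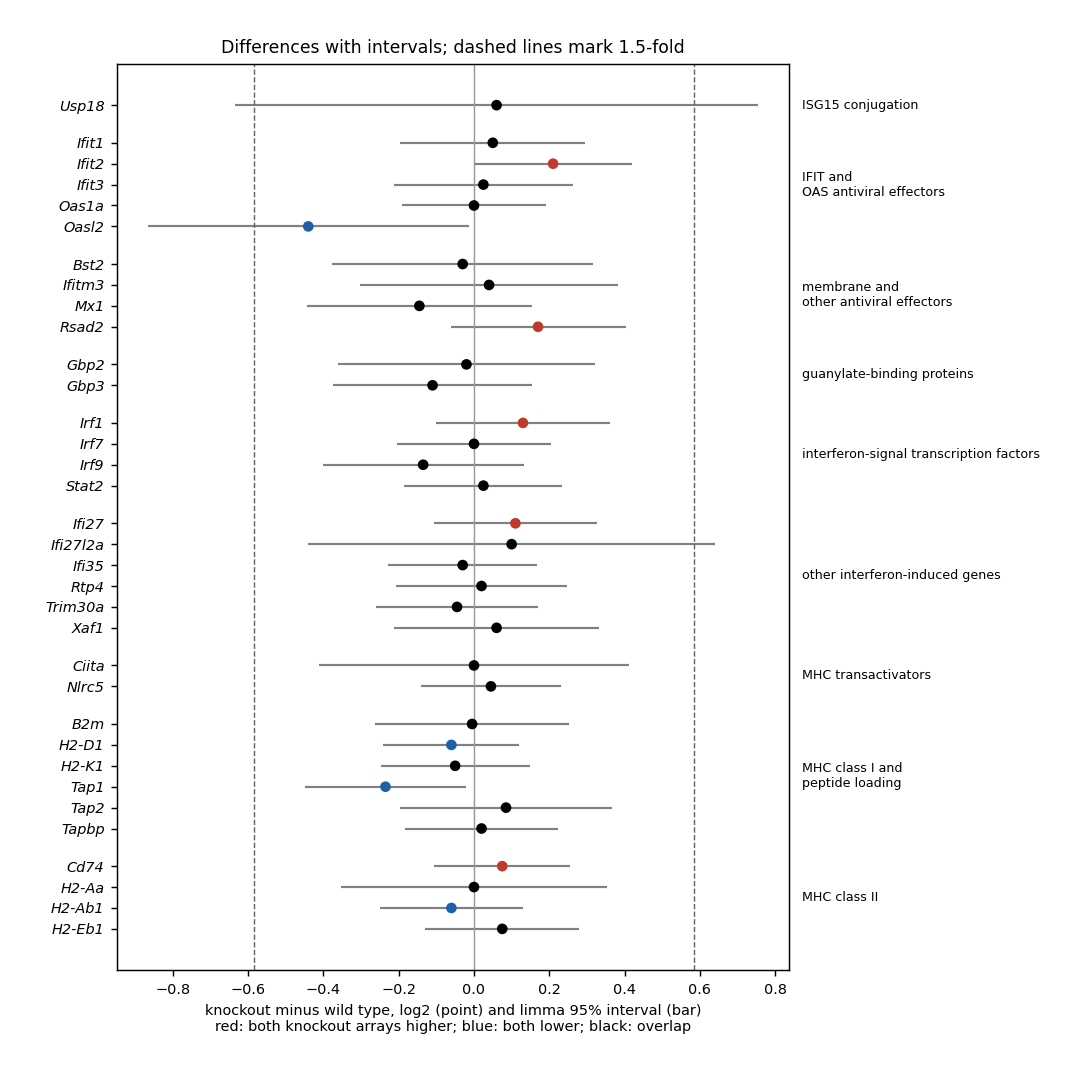
Knockout minus wild-type difference of each member on the log2 scale (x axis) with its 95% interval from limma, genes on the y axis by role and dashed lines at 1.5-fold. Points are coloured where both knockout arrays lie on 1 side of both wild-type arrays. The bars of Usp18, Ifi27l2a and Oasl2 are the ones that cross a dashed line.

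Among the IFIT and OAS proteins, which bind foreign RNA or answer to it, Ifit2 and Oasl2 differed in opposite directions and the rest were close to 0. Ifit2, whose protein restricts translation of viral RNA, stood at 7.72 and 7.80 in the wild-type mice and at 7.92 and 8.02 in the knockouts. Both knockout mice were above both wild-type mice, with a difference of 0.21 (SE 0.080, 95% interval 0.00085 to 0.42), or 1.16-fold, and of 0.16 without the second knockout array. Oasl2, a member of the oligoadenylate synthetase family, stood at 4.97 and 5.12 in the wild-type mice and at 4.82 and 4.39 in the knockouts. The genotypes did not overlap, the second knockout array was the lowest, and the probe set was dim, with a mean under the lower quartile of 4.89 over all probe sets. The difference was -0.44 (SE 0.16, 95% interval -0.87 to -0.014). Without the second knockout array it was -0.23, and without the first -0.66. Ifit1 and Ifit3, neighbours of Ifit2 on chromosome 19, differed by 0.050 (SE 0.094) and 0.025 (SE 0.091). Oas1a, which makes the second messenger that activates RNase L, had means of 7.33 in both groups.

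Among the membrane-linked antiviral effectors, Rsad2 was the member with several probe sets that all differed the same way by more than 0.15. It encodes viperin, an enzyme that makes a chain-terminating nucleotide and whose promoter window with the ISRE core is printed above. Its brightest probe set stood at 7.34 and 7.43 in the wild-type mice and at 7.48 and 7.63 in the knockouts, without overlap. The difference was 0.17 (SE 0.089, 95% interval -0.062 to 0.40). The other 2 Rsad2 probe sets differed by 0.40 (SE 0.16), also without overlap, and by 0.28 (SE 0.18) with overlap, both from low levels near the lower quartile of all probe sets. Without the second knockout array the brightest probe set differed by 0.095. Bst2, or tetherin, which holds budding virus at the cell surface, stood at 7.0 and 7.18 in the wild-type mice and at 6.91 and 7.21 in the knockouts, so that the knockout mice spanned the wild-type range. Ifitm3, which blocks fusion of virus in endosomes, differed by 0.040 (SE 0.13). Mx1, a dynamin-like GTPase that is defective in most laboratory mouse strains, was dim, at 4.33 and 4.18 in the group means.

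Usp18 had the widest spread between mice of the same genotype among the 34 measured members. Its protein removes ISG15 from other proteins and holds the interferon receptor in check. Usp18 stood at 5.48 and 5.93 in the wild-type mice and at 5.44 and 6.09 in the knockouts, so that the low mouse and the high mouse of each genotype lay side by side. The genotype difference was 0.060 (SE 0.27, 95% interval -0.63 to 0.75). Leaving out the first wild-type array turned it to -0.17, leaving out the second knockout array to -0.27, and leaving out the first knockout array gave 0.39. The probe set shared by Isg15, the ubiquitin-like modifier that Usp18 removes, and Gm9706 stood at 6.83 and 7.09 in the wild-type mice and at 6.87 and 7.07 in the knockouts, with a difference of 0.010 (SE 0.13).

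The transcription factors of the pathway lay within 0.14 of wild type. Irf1, an early mediator of interferon gamma signalling, stood at 7.53 and 7.37 in the wild-type mice and at 7.55 and 7.61 in the knockouts, which differ by 0.13 (SE 0.088). The margin between 7.53 and 7.55 was narrow, and the difference was 0.050 when the second wild-type array was left out. It was 0.10 when the second knockout array was. Stat2 and Irf9, which act together at the ISRE, differed by 0.025 (SE 0.080) and -0.14 (SE 0.10), both with overlap. Irf7, which amplifies type I interferon production, had a mean of 6.11 in both groups.

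Of the remaining interferon-induced genes, Ifi27 was the one without overlap in the brightest probe set. It encodes a small mitochondrial and nuclear-envelope protein, and stood at 9.58 and 9.62 in the wild-type mice and at 9.64 and 9.78 in the knockouts. The difference was 0.11 (SE 0.083), its second probe set differed by 0.060, and without the second knockout array the value was 0.040. Ifi27l2a, a related gene strongly induced by type I interferon, stood at 6.26 and 6.52 in the wild-type mice and at 6.22 and 6.76 in the knockouts. The knockout mice lay on either side of both wild-type mice, and the difference of 0.10 (SE 0.21) became -0.17 without the second knockout array, -0.030 without the first wild-type array and 0.37 without the first knockout array. Gbp2 and Gbp3, guanylate-binding proteins that attack membranes of intracellular pathogens, differed by -0.020 (SE 0.13) and -0.11 (SE 0.10). In their brightest probe sets Ifi35, Rtp4, Trim30a and Xaf1 had differences from -0.045 to 0.060, all with overlap. The second Xaf1 probe set, a dim one, differed by -0.235 (SE 0.13) without overlap. The further probe sets of Ifi35, Rtp4 and Trim30a differed by -0.060 to 0.15, with overlap.

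In most interferon-response members the mouse numbered 2 was above the mouse numbered 1 within both genotypes. This was so in 14 of 22 members, or 63.6%, where the share over all genes was 35.2%, and the reverse held in 1 of 22, beside 17.1% of all genes. Among 56 interferon-stimulated genes that are not members it was so in 22, or 39.3%, near the share over all genes. Of the lists described below, it was so in 53.6% of 28 class I and 28.6% of 14 class II pathway genes. The count was 5 of 10 interferon genes, 6 of 12 negative regulators, 3 of 9 receptors and kinases and 3 of 16 sensors and adaptors. Among cell type markers the counts ran from 0 of 9 for astrocytes to 6 of 9 for border macrophages. The mean level of the 22 members was 6.81 and 6.94 for wild-type mice and 6.84 and 6.92 for knockout mice, so both knockout values lay between the wild-type values. Usp18 differed between mice by 0.45 in wild type and 0.65 in the knockout, Ifi27l2a by 0.26 and 0.54, and Bst2 by 0.18 and 0.30. Ifitm3 differed by 0.31 and 0.15 and Mx1 by 0.27 and 0.080. Oasl2 went the other way in the knockout, at 0.15 and -0.43. Across the 22 members the differences between mice in the 2 genotypes had a Pearson correlation of 0.44, against 0.13 over 18193 genes, where genes of 1 array share its RNA and are not independent. Much of the 0.44 rests on Usp18 and Ifi27l2a, which lie farthest out, so it does not describe the 22 members as a set. The labels do not say that the number marks a litter, a cage or a day, and the part of handling, litter or array in these steps was not tested. In the antigen presentation members the count was 4, or 33.3%.

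**Figure D3:**
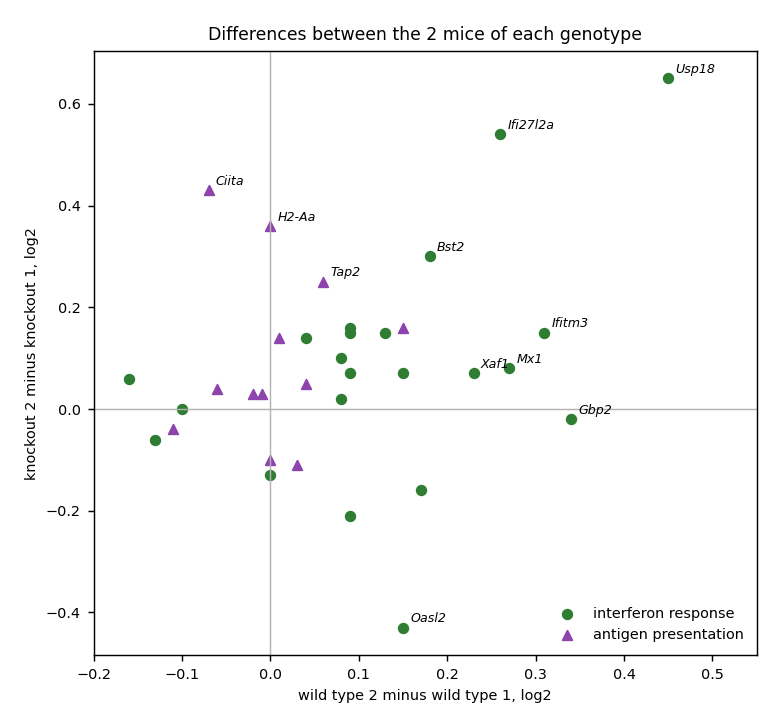
Difference between both mice of a genotype, in wild type (x axis) and in the knockout (y axis), on the log2 scale, 1 point per member. Interferon-response members (circles) lie mostly in the upper right, where the mouse numbered 2 is higher in both genotypes, with Usp18 and Ifi27l2a farthest out.

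The ISRE core was then set beside this variation between mice. Of 10 measured interferon-response members with the core in their window, 6 were higher in the mouse numbered 2 in both genotypes, of 7 with a window and no core it was 3, and of 5 without a window it was 5. The median genotype difference was 0.013 in the first set, 0 in the second and 0.060 in the third. These counts are a description of few genes, chosen by name.

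In MHC class I presentation, Tap1 was the one member whose brightest probe set had a difference above 0.1 in size. It encodes 1 of the 2 chains of the transporter that carries peptides into the endoplasmic reticulum, and its brightest probe set stood at 6.51 and 6.52 in the wild-type mice and at 6.21 and 6.35 in the knockouts. Both knockout mice were below both wild-type mice, with a difference of -0.23 (SE 0.082, 95% interval -0.45 to -0.020), or 1.18-fold. Without the second knockout array it was -0.30, with an adjusted p of 0.637 in limma. Its other probe sets did not follow. They differed by -0.020 (SE 0.11), -0.015 (SE 0.076) and 0.23 (SE 0.095), the last 2 from dim levels, and the mean over all 4 probe sets gave -0.010. The probe set at 0.23 was higher in the knockout without overlap, opposite to the brightest one. Tap2, the partner chain, differed by 0.085 (SE 0.11), and Tapbp, or tapasin, which bridges the transporter to class I molecules, by 0.020 (SE 0.078). B2m, the light chain of every class I molecule, stood at 11.07 and 11.22 in the wild-type mice and at 11.06 and 11.22 in the knockouts. Its second probe set stood at 11.10 in the first knockout array, beside 10.81 to 10.83 in the other arrays.

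The class I heavy chains H2-K1 and H2-D1 are similar in sequence, and a probe set annotated to one may also read another class I gene. The brightest H2-D1 probe set stood at 10.35 and 10.34 in the wild-type mice and at 10.27 and 10.30 in the knockouts, which differ by -0.060 (SE 0.069) without overlap. The 9 probe sets of H2-D1 differed by -0.24 to 0.16. The one at -0.24 (SE 0.080) was dim and lower without overlap, with an unadjusted p of 0.033 in limma. The brightest H2-K1 probe set differed by -0.050 (SE 0.076) with overlap, while the other 3 differed by 0.020 to 0.28, and of these the probe sets at 0.13 (SE 0.070) and 0.28 (SE 0.11) had no overlap. Of all 67 member probe sets, 22 carry the array's suffix for probes that can match several transcripts.

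**Figure D4:**
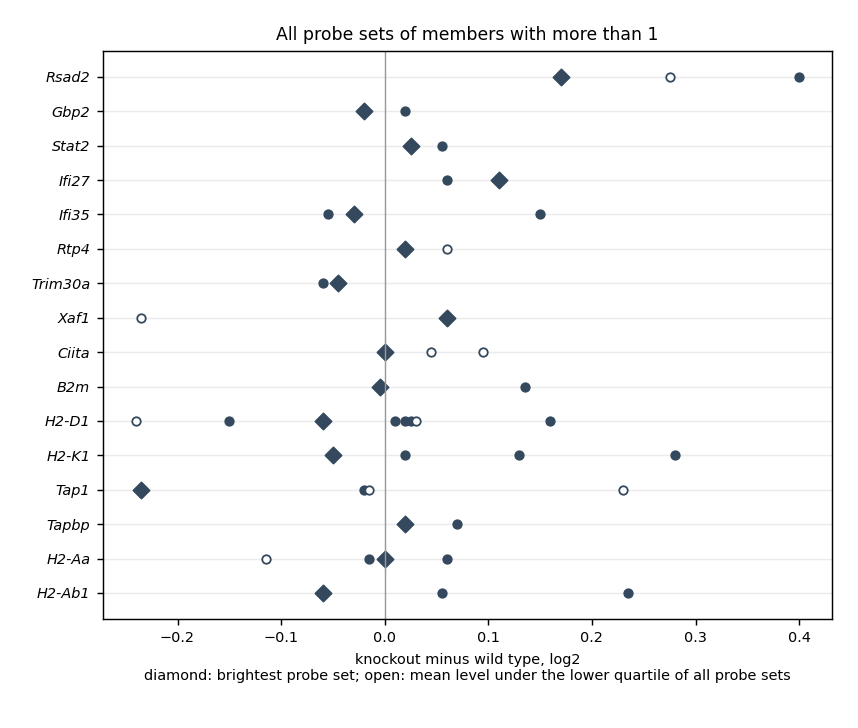
Knockout minus wild-type difference on the log2 scale (x axis) of every probe set of the 16 members with more than 1. Diamonds are the brightest probe set of a gene and open symbols mark dim probe sets. The probe sets of 9 genes, among them H2-D1, H2-K1 and Tap1, fall on both sides of 0, while the 3 of Rsad2 all lie above it.

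MHC class II genes differed by at most 0.075 in their brightest probe sets. Cd74, the invariant chain that guides class II molecules to the compartment of peptide loading, stood at 7.12 and 7.10 in the wild-type mice and at 7.17 and 7.20 in the knockouts. The genotypes did not overlap, and the difference was 0.075 (SE 0.069). H2-Ab1 was lower without overlap at -0.060 (SE 0.072), though its other probe sets differed by 0.055 with overlap and by 0.23 without overlap. H2-Aa had a mean of 7.04 in both groups and H2-Eb1 differed by 0.075 (SE 0.078). Ciita, the switch for class II transcription, had a mean of 5.71 in both groups, with knockout arrays at 5.50 and 5.93 on either side of the wild-type arrays at 5.75 and 5.68. Nlrc5, its counterpart for class I genes, was dim and differed by 0.045 (SE 0.071).

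The rest of the pathway was read from lists that hold none of the members, and 0 of their genes passed in limma in either direction. At an unadjusted p under 0.05 there was 1 higher gene, Oas1c, and 2 lower genes, Erap1 and H2-Q2. Interferon genes themselves were measured for 10 of 18, 5 of those 10 dim, with differences of -0.10 to 0.080. Ifna4, Ifna1 and Ifna9, the ones of smallest p, differed by -0.10, -0.065 and 0.070. Receptor chains and kinases lay between -0.15 and 0.065 over 9 genes, led by Ifngr1 at -0.13, Ifngr2 at -0.15 and Jak1 at 0.065. Among 16 sensors and adaptors, Tlr3, an endosomal receptor for double-stranded RNA, was at 0.14 (SE 0.086), Cgas, the sensor of cytosolic DNA, at -0.17 (SE 0.10), and the adaptor Ticam1 at -0.11 (SE 0.11).

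Of 12 negative regulators, 2 were higher and 4 lower without overlap, or 16.7% and 33.3%, where 15.5% and 12.8% of all genes were. Rnaseh2c, a subunit of the enzyme that clears RNA from DNA strands, was at -0.23 (SE 0.090), Ptpn11, a phosphatase, at 0.17 (SE 0.070) and Adar, which edits double-stranded RNA, at 0.17 (SE 0.072). Among 56 other interferon-stimulated genes 8 were higher and 5 lower without overlap, or 14.3% and 8.93%, with a median of 0.0050. Without the second knockout array 12 were higher and 22 lower, where 28.7% and 39.8% of all genes were. Oas1c was at 0.48 (SE 0.17), Cxcl10, a T cell chemokine, at 0.19 (SE 0.071), both from dim levels, and Irgm2 at -0.20 (SE 0.086).

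Other genes of antigen presentation were counted in the same way. Of 28 class I pathway genes 6 were lower without overlap and 3 higher, or 21.4% and 10.7%. Erap1, which trims peptides, was at -0.21 (SE 0.069), H2-Q2 at -0.54 (SE 0.18) from a dim level, and Psmb10, an immunoproteasome subunit, at -0.16 (SE 0.10). Of 14 class II pathway genes 6 were lower without overlap and 0 higher, or 42.9% and 0%, where the background was 12.8% and 15.5%. These were H2-Ea at -0.20 (SE 0.092), H2-Ob at -0.26 (SE 0.12), Ctss at -0.11 (SE 0.069), and Cd80, H2-DMa and Ctsl at -0.12, -0.11 and -0.015. The list median was -0.050, each of these genes had an adjusted p of 1 in limma, and they were read on the same 4 arrays, so their values are not independent. Without the second knockout array 8 of the 14 were lower and 3 higher, and of the 28 class I pathway genes 15 were lower and 8 higher, where 39.8% of all genes were lower and 28.7% higher.

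**Figure D5:**
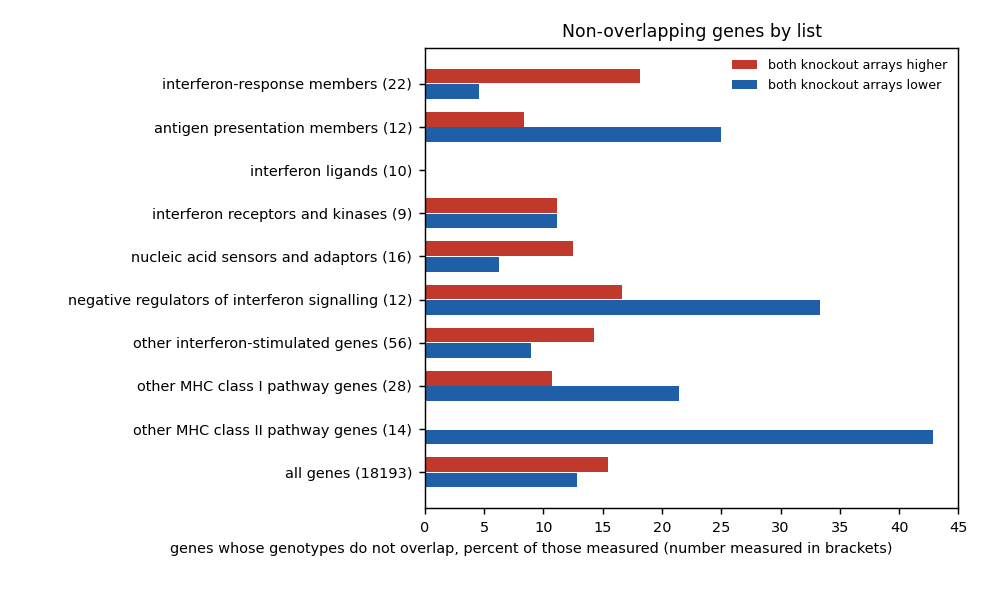
Percent of the measured genes of each list (x axis) whose knockout arrays both lie above (red) or both below (blue) the wild-type arrays, with the number measured in brackets. All genes are the lowest pair of bars, at 15.5% and 12.8%. Interferon-response members stand at 18.2% higher and 4.55% lower, and antigen presentation members at 8.33% and 25%. The class II list reaches 42.9% lower on 14 genes.

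Markers of the cells that could carry these transcripts were read beside them, and their counts without overlap stand against the 15.5% higher and 12.8% lower of all genes. Microglial markers had a mean level of 8.21 and 8.25 for wild-type and 8.22 and 8.25 for knockout mice over 16 of 17 genes. Of these 1 was higher and 2 were lower without overlap, with Trem2 at 0.19, Gpr34 at 0.10, P2ry12 at -0.065 and Cx3cr1 at -0.12. Border macrophage markers stood at 6.04 and 6.21 in the wild-type mice and at 6.00 and 6.43 in the knockouts over all 9 genes, the highest value being in the second knockout array, where Cbr2 stood at 7.38. In the first knockout array Cbr2 stood at 6.06 and in the wild-type mice at 5.80 and 6.24. The second knockout array is the one with nasal transcripts, and the part of nasal tissue in its Cbr2 level was not tested. Of the 9 border macrophage markers 6 had a positive and 3 a negative difference, and 2 were higher without overlap, with Mrc1 at 0.25, Lyve1 at -0.40 and Cd163 at -0.15. Dendritic cell markers stood at 6.06 and 6.07 in the wild-type mice and at 6.03 and 6.07 in the knockouts over 8 of 9 genes, 1 of them lower without overlap, with Flt3 and Itgax at -0.085 and 0.040.

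T and NK cell markers had 5.23 and 5.14 against 5.12 and 5.28 over 11 of 14 genes, of which 5 were dim. Of these 2 were higher and 0 lower without overlap, Nkg7, a granule protein of cytotoxic cells, at 0.36 (SE 0.069) from a dim level and Cd3e at 0.090, while Cd3g and Cd8a were at -0.19 and -0.16. B cell markers had 5.38 and 5.41 against 5.33 and 5.48 over 7 of 8 genes, with 2 higher (Cd22 at 0.18 and Cd79b at 0.070) and 2 lower (Cd79a at -0.20 and Ms4a1 at -0.070). Endothelial markers had 8.50 and 8.48 against 8.48 and 8.58 over 9 of 11 genes, 1 of them higher without overlap.

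Neutrophil and monocyte markers and meningeal fibroblast markers were the lists with most genes higher without overlap, 7 of 11 and 6 of 10. The neutrophil and monocyte mean was 5.17 and 5.18 for wild-type and 5.46 and 5.64 for knockout mice, with S100a8 at 1.17 (SE 0.23). Meningeal fibroblast markers had 8.88 and 8.95 against 9.05 and 9.23, a median difference of 0.26 and Fmod at 0.41 (SE 0.097) and Igf2 at 0.34 (SE 0.076). Astrocyte markers had 11.22 and 11.23 against 11.32 and 11.24 over 9 genes, 2 of them higher without overlap, with Gfap at 0.28 (SE 0.081). Of oligodendrocyte markers 2 of 9 and of choroid plexus markers 1 of 9 were higher without overlap, with 0 lower. No gene of these lists passed in limma. No array gives a true 0, and the part of any of these cells in the members' values was not tested. Neurons marked the labelled tissue, with a mean of 12.27, 12.28, 12.26 and 12.24 over 10 markers, of which 3 were lower without overlap.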

How the data were processed

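Total RNA (100 ng per mouse) was amplified, biotin-labelled and hybridised to 1-colour Affymetrix arrays, per the labels' protocols. The deposited values are log2 levels from RMA, which the authors ran according to the submitters' processing notes; its software and settings are not stated there. RMA values carry no detection call, so the levels of dim genes cannot be told from background and their differences are compressed. Precision is limited by the number of arrays.

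The 64 control probe sets were left out and 45037 were tested. The platform annotation named 1 gene for 34945 probe sets, several for 932 and none for 9160, and an update through RefSeq (GRCm38.p6) changed 0 symbols. A gene is its brightest probe set over the 4 arrays. The genotypes were compared across all probe sets with limma 3.58.1 under R 4.3.3 (lmFit and eBayes, two-sided, 2 residual and 2.74 prior degrees of freedom). On simulated data over 45037 probe sets the fit recovered 94% of 50 planted increases of 3 on the log2 scale and 48% of those of 1. For planted decreases of the same sizes it recovered 90% and 42%. Of the simulated probe sets without a planted change 6.02% had an unadjusted p under 0.05 in limma. In the data 1.68% of genes were higher and 1.07% lower at that level, so the simulation does not match these arrays in this respect.

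The members and lists were chosen with earlier results of these data known. Each member is named, with values for every array where the genotypes do not overlap and differ by at least 0.1, or where the arrays span at least 0.5; from each pathway list the 3 genes of smallest p are named. Values given outside this rule (such as Bst2, Cd74, Ciita, B2m, Cbr2, Ctss, Cd80, H2-DMa, Ctsl and the single cell type markers) were chosen after they were seen. Some genes are in more than 1 list. Alternatives were a robust variance with intensity trend, leaving out dim probe sets, a second quantile normalization, centring of each array on its median, the mean of a gene's probe sets, the mouse number as a block, and each array left out; counts of the wider lists without the second knockout array were added after the data were seen.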

Additional observations from a re-analysis of the deposited data

How the results depend on the processing

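No member was called in either direction under any alternative run (0 higher and 0 lower in limma each time). Unadjusted p under 0.05 was reached by at most 1 member higher and 2 lower. The mouse numbers give only 2 pairs, and nothing in the labels ties same-numbered mice together. Their deviations correlated at 0.24 over all probe sets. With the replicate block no call changed, and the lowest adjusted p of the 8 members given in full was 0.847 in limma. In both pairs 8 members were higher and 6 lower. Averaging the probe sets of a gene left 6 members higher and 2 lower without overlap. The shares over all genes were not counted for the pairs or for averaged probe sets, so these counts have no background beside them. Leaving out each array in turn gave 7 to 14 members higher and 6 to 13 lower without overlap, a median difference of -0.043 to 0.075 for interferon-response members and -0.058 to 0.063 for antigen presentation members, and differences of -0.17 to 0.37 for Ifi27l2a and -0.27 to 0.39 for Usp18. Ifi27l2a and Usp18 turned negative without the first wild-type array (-0.030 and -0.17) and without the second knockout array (-0.17 and -0.27). The other 6 members given in full kept their sign in every alternative that measured them; Oasl2 drops out without dim probe sets. Where a group is left with 1 array, that array is assumed to vary like the others.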
